A study of Sus scrofa with 15 samples.

Results

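The cytochrome P450 and drug-metabolizing enzymes of pig liver were described in the input RNA of a MeRIP-seq experiment (sequencing of RNA captured with an antibody against N6-methyladenosine, m6A). Members were given as 45 gene names and were found by pairing each name with a pig Ensembl gene in the deposited count table. Of the 45 names, 32 had a row among the 31908 rows of the table. A further 10 names (CYP2B22, CYP2C33, CYP2D25, CYP3A22, CYP3A39, CYP3A46, CES1, CES2, UGT2B31 and GSTA1) were not paired with an identifier in the gene names used here. The identifiers of 3 more (CYP2C42, CYP2C49 and CYP3A29) had no row in the table. These 13 genes were not analysed here, so of the 14 P450s listed for drugs and xenobiotics only 5 are covered, and the CYP2B, CYP2C and CYP3A forms are not among them.

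The animals were male Duroc x Large White x Landrace piglets in the growing stage, with no age in days in the sources. The LPS group received 80 μg/kg of lipopolysaccharide, a component of the Gram-negative bacterial wall, by intraperitoneal injection, and the CON group received sterile saline. Livers were taken 4 h later, and 3 input libraries of polyadenylated RNA per group were analysed, out of 6 piglets per group in the study. The sources do not say whether a library is 1 piglet or a pool, so p-values measure only the spread between these libraries. The m6A-IP libraries were not analysed here.

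Cytochrome P450s are heme enzymes of the endoplasmic reticulum and mitochondria that insert oxygen into drugs, toxins, steroids, retinoids and fatty acids. Those of the endoplasmic reticulum take electrons from NADPH through the reductase POR, in part helped by cytochrome b5. Other oxidases, dehydrogenases and hydrolases add to this first phase, and transferases then attach sulfate, glucuronic acid, methyl groups or glutathione, which makes the product easier to excrete. Hepatocytes hold most of these enzymes, and inflammation is known to lower many of them in mammalian liver.

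The CON libraries held 5927348 to 10351491 counts and the LPS libraries 4348478 to 19967417. Values are given as CPM, the gene's count relative to the TMM-scaled library size, or, where genes are compared with each other, as RPKM, CPM per 1000 bases of exon length. LPS replicate 2 stood apart from the other LPS libraries. Its log2 CPM over all tested genes correlated at 0.928 to 0.949 with the CON libraries, against 0.914 and 0.858 with LPS replicates 1 and 3. For members, where leaving it out gave a call or moved a log2 fold change by over 1.5 times, both values are given. For single genes of the other lists, only the log2 fold changes with all 6 libraries are given, also where leaving it out gave a call. Library values are listed in the order of replicates 1, 2 and 3. Of 15 hepatocyte markers, all had counts in every library, ALB reached 12381 to 38011 CPM, and 8 were lower and 7 higher under LPS (median log2 fold change -0.06). The markers were mixed, from -1.03 for ASGR1 and -0.76 for ALB to 1.45 for FGB and 1.75 for ARG1. The SERPINA1 row, counted as higher, had only 1.23 to 7.20 CPM. The median is therefore not a measure of hepatocyte content. In these bulk samples, fewer cells of a type and less RNA per cell cannot be told apart.

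In the CON livers the members spanned a wide range of levels per length. EPHX1, the microsomal epoxide hydrolase, had the highest level of the 32 members (514 ± 61.3 RPKM, mean ± SD, n = 3) and ranked 82 among all rows. CYP2E1, which oxidizes ethanol and small solvents, came next with 268 ± 10.6 RPKM. GSTO1, an omega-class glutathione transferase, had 185 ± 12.1 RPKM. These 3 did not overlap within 1 SD of each other. They were followed by SULT2A1, a sulfotransferase of bile acids and steroids (119 ± 78.4 RPKM), and FMO1, a flavin monooxygenase (114 ± 46.3 RPKM), which did not differ beyond their spread. In all, 16 members had at least 50 RPKM in the CON group and 10 had under 10 RPKM. The lowest levels were those of CYP1B1 (0.171 ± 0.074 RPKM) and GSTM3 (0.618 ± 0.420 RPKM).

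**Figure D1:**
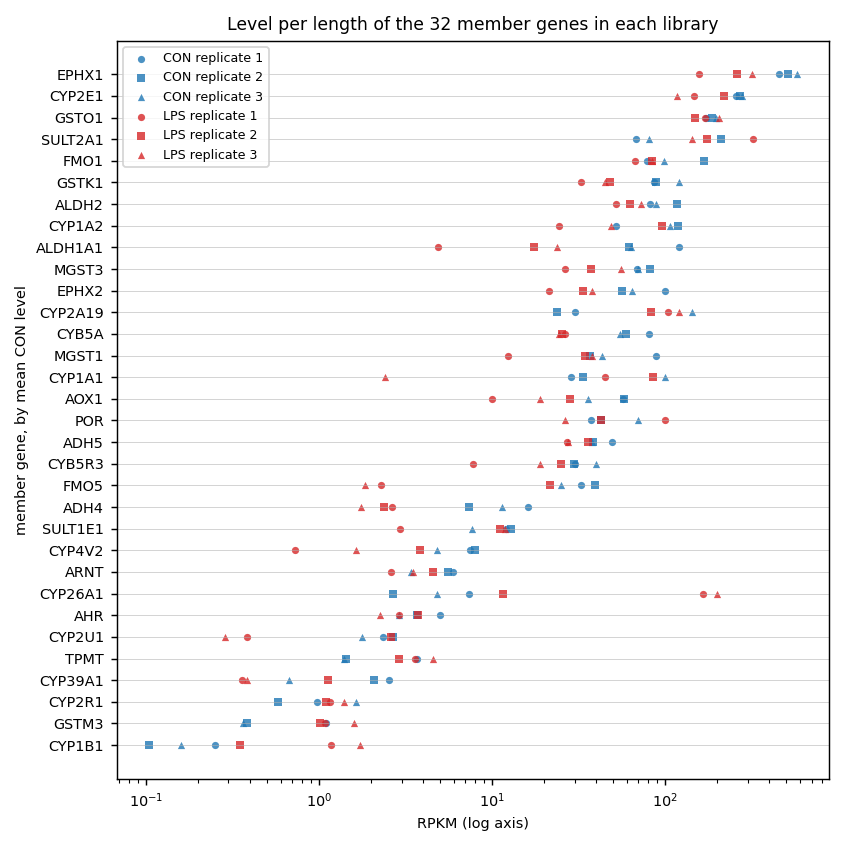
RPKM on a log axis for each of the 32 members, ordered by the CON mean, with 1 point per library (blue for CON, red for LPS, and a marker shape per replicate number). EPHX1 heads the list at 514 RPKM in the CON group. For CYP26A1, the points of LPS replicates 1 and 3 (165 and 198 RPKM) lie far to the right of the CON points. That of LPS replicate 2 (11.5 RPKM) lies closer to them.

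Most members had lower values in the LPS group than in the CON group. The CPM of all members summed to 6696.8, 6930.5 and 6788 in CON replicates 1, 2 and 3 and to 3895, 4578 and 4220.2 in LPS replicates 1, 2 and 3. All 3 LPS sums therefore lay below all 3 CON sums, and their mean was 62.2% of the CON mean. As a share of raw counts, without TMM scaling, the members held 0.663% to 0.748% of the CON libraries and 0.310% to 0.509% of the LPS libraries. CYP2E1 alone made up 14.5% to 15.4% of the members' counts in the CON libraries and 10.5% to 18.1% in the LPS libraries.

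Of the 32 members, 31 passed the filter on low counts and GSTM3 did not. Among the 31, 24 had a log2 fold change below 0 and 7 above 0, that is 77.4% lower, where 49.5% of all 12774 tested genes were below 0 and 50.5% above. A log2 fold change below -1 was found for 11 members and one above 1 for 2, against 7.42% and 7.03% of all tested genes. The median log2 fold change of the 31 was -0.71, against 0.01 over all tested genes. edgeR's quasi-likelihood test, with a Benjamini-Hochberg adjusted p below 0.05 over all tested genes and a fold change above 1.5, called 0 members higher and 0 lower. The same test called 0.0548% of all tested genes higher and 0% lower. At an unadjusted p below 0.05, 12 members were lower and 2 higher, which is 38.7% and 6.45% of the members, against 6.33% and 6.18% of all tested genes. In 14 members (45.2%) all 3 LPS values lay below all 3 CON values, as in 9.8% of all tested genes, and for 2 members the LPS values were all above the CON range, as for 6.52%.

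Other tools and library sets called some members. DESeq2 called 2 members higher (CYP26A1 and CYP1B1) and 4 lower (ADH4, ALDH1A1, CYB5A and GSTK1), where it called 1.96% and 1.02% of the genes with an adjusted p. limma-voom called 0 and 0, and 0.0157% and 0% of all genes. Without LPS replicate 2, edgeR called the same 2 members higher and 8 lower (ADH4, ALDH1A1, AOX1, CYB5A, CYP2U1, CYP39A1, CYP4V2 and FMO5), against 3.76% and 3.45% of all genes then tested. Without the filter on low counts it also called 2 higher and 8 lower, against 2.28% and 1.48%, and 9 members were called in both of these settings. In the fit without the filter, standard errors differed little between genes that varied unequally. They were 0.404 for CYP1A1 and 0.415 for FMO5, against 0.950 and 0.845 in the main fit. Its calls therefore take less account of each gene's own spread. Across 3 settings (DESeq2, no filter, and no LPS replicate 2), 5 members were called in each, namely CYP26A1, CYP1B1, ADH4, ALDH1A1 and CYB5A. These 3 settings were those with the most member calls and used the same libraries, so their overlap is not independent support. Over all alternatives, ADH4 was called in 5 of 13 and CYP26A1 in 4 of 13. ALDH1A1 and CYB5A were called in 3 of 13 and CYP1B1 in 3 of 12.

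**Figure D2:**
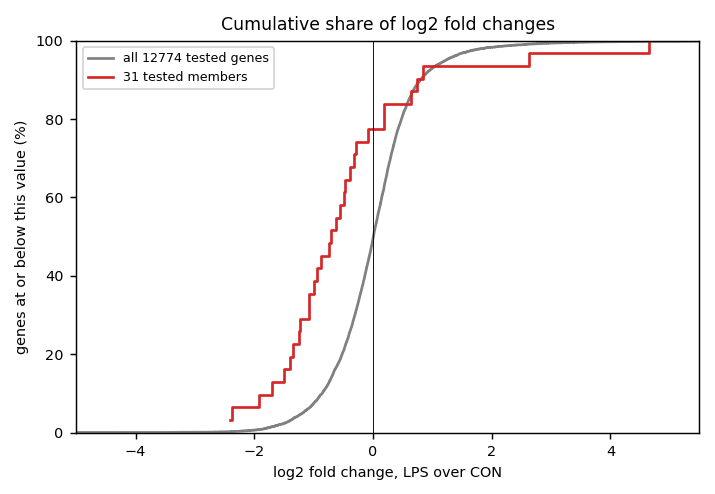
Cumulative share of genes in percent (y axis) at or below each log2 fold change, LPS over CON (x axis), for all 12774 tested genes in grey and the 31 tested members in red. The member curve crosses 0 at 77.4% and the curve of all genes at 49.5%, and 2 members, CYP1B1 and CYP26A1, form the right end.

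Among the P450s that handle drugs and xenobiotics, CYP2E1 (ENSSSCG00000010780, Sscrofa11.1 chromosome 14 from 141690426 to 141736818) had the highest CON level per length of the 5 members with a row. It had 969.9, 1028 and 1047 CPM in CON and 553, 829 and 444 CPM in LPS. The groups did not overlap, and the CON libraries lay close together. The log2 fold change was -0.74, with a 95% interval from -1.49 to 0.01 and an edgeR adjusted p of 0.408. Without LPS replicate 2 it was -1.02 (adjusted p = 0.111).

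CYP1A1 and CYP1A2, which oxidize planar aromatic compounds and are classical targets of the AHR receptor, varied widely within both groups. CYP1A1 stood at 98.8, 116 and 347 CPM in CON and at 156, 295 and 8.40 CPM in LPS. LPS replicate 3 was thus the lowest of all 6 libraries and LPS replicate 2 the second highest. CYP1A2 stood at 106, 244 and 219 CPM in CON and at 50.1, 198 and 100.2 CPM in LPS. The log2 fold changes were -0.29 (95% interval -2.44 to 1.85) for CYP1A1 and -0.71 (95% interval -1.85 to 0.43) for CYP1A2, with edgeR adjusted p of 0.927 and 0.608. The sign for CYP1A1 depended on single libraries, since its log2 fold change was 0.53 without CON replicate 3 and 0.28 without LPS replicate 3, and it was -1.20 without LPS replicate 2. That of CYP1A2 was -1.33 when LPS replicate 2 was left out (edgeR adjusted p = 0.108) and -0.34 when LPS replicate 1 was. The ratio of CYP1A1 to CYP1A2 counts ran from 0.475 to 1.58 in the CON libraries and was 3.11, 1.49 and 0.0838 in LPS replicates 1, 2 and 3. Exons of the 2 genes overlap on opposite strands in the table (chromosome 7, from 58780105 to 58809755 for CYP1A1 and from 58779475 to 58786100 for CYP1A2). The sources do not say whether counting used strand, so reads in the overlap are uncertain. Exons of 12 members overlapped another row in all, 8 on the opposite strand (CYP1A1, CYP1A2, CYP2E1, CYP39A1, POR, FMO5, EPHX1 and TPMT) and 4 on the same strand (CYP2U1, CYB5R3, ARNT and FMO1). For these 4, knowing the strand would not assign the shared reads.

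CYP1B1 (ENSSSCG00000033844, chromosome 3 from 102195741 to 102206750), a P450 of estrogens and polycyclic aromatic compounds found mostly outside hepatocytes, was 1 of the 2 members at an unadjusted p below 0.05 with higher values. It had 21, 5 and 12 counts in the CON libraries and 40, 16 and 188 in the LPS libraries. In CPM these were 1.88, 0.781 and 1.19 against 8.72, 2.62 and 12.8, so the groups did not overlap, at a low level. CYP1B1 passed the filter on low counts only through the LPS libraries, the group where it was higher. With at least 10 counts required in every library, it was not tested. The log2 fold change was 2.62 (standard error, SE, 0.62, adjusted p = 0.163 by edgeR), and 3.04 without LPS replicate 2 (then adjusted p = 0.00576). CYP2A19, a pig P450 of the CYP2A family, had 246 CPM in CON replicate 3 against 51.7 and 40.9 in CON replicates 1 and 2. Its LPS values of 143 to 207 CPM lay within that range, and its log2 fold change of 0.64 became 1.96 without CON replicate 3 (edgeR adjusted p = 0.711 and 0.275).

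The P450s of endogenous substrates held the largest fold change of all members. CYP26A1 (ENSSSCG00000010475, chromosome 14 from 104563195 to 104567097) clears retinoic acid by oxidation. It stood at 15.7, 5.78 and 10.4 CPM in CON and at 355, 24.7 and 425 CPM in LPS. All 3 LPS libraries lay above the CON libraries, with LPS replicate 2 far below the other 2. The log2 fold change was 4.65 (SE 0.93, adjusted p = 0.107 by edgeR), a fitted ratio of 25.1. Without LPS replicate 2 it was 5.19 (adjusted p = 0.000281). DESeq2 gave 4.71 with all libraries (adjusted p = 1.76e-08), and over all alternatives the adjusted p ranged from 1.03e-19 to 0.586. The smallest came from edgeR without the filter on low counts, where the standard error was 0.470.

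The other members of this group had no higher values of that kind. CYP4V2, a fatty acid hydroxylase, stood at 29.0, 30.9 and 18.7 CPM in CON and at 2.83, 14.9 and 6.35 CPM in LPS, without overlap. The fitted log2 fold change was -1.70 (SE 0.53, adjusted p = 0.253 by edgeR), and -2.44 with LPS replicate 2 left out (adjusted p = 0.0131). CYP39A1, an oxysterol hydroxylase of bile acid synthesis, had 13.9, 11.4 and 3.66 CPM against 1.96, 6.22 and 2.12 CPM, with LPS replicate 2 inside the CON range. The fitted log2 fold change was -1.502 (SE 0.61, adjusted p = 0.359 by edgeR), and -2.22 with LPS replicate 2 left out (adjusted p = 0.0498). CYP39A1 had 156, 73 and 37 counts in CON and 9, 38 and 31 in LPS, while the SLC25A27 row that overlaps it on the opposite strand had 1220, 686 and 509 against 125, 285 and 463. The part of shared reads in this difference was not tested. CYP2U1, a further fatty acid hydroxylase, showed the same split, with 13.2 to 19.8 CPM in the CON group and 2.83, 19.3 and 2.12 CPM in LPS replicates 1, 2 and 3. Its log2 fold change was -1.07 with all libraries and -2.79 without LPS replicate 2 (edgeR adjusted p = 0.588 and 0.00618). CYP2R1, a vitamin D 25-hydroxylase, had 2.50 to 7.12 CPM in the CON group and 4.74 to 6.08 in the LPS group, and its log2 fold change of 0.19 became -0.09 without CON replicate 2.

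**Figure D3:**
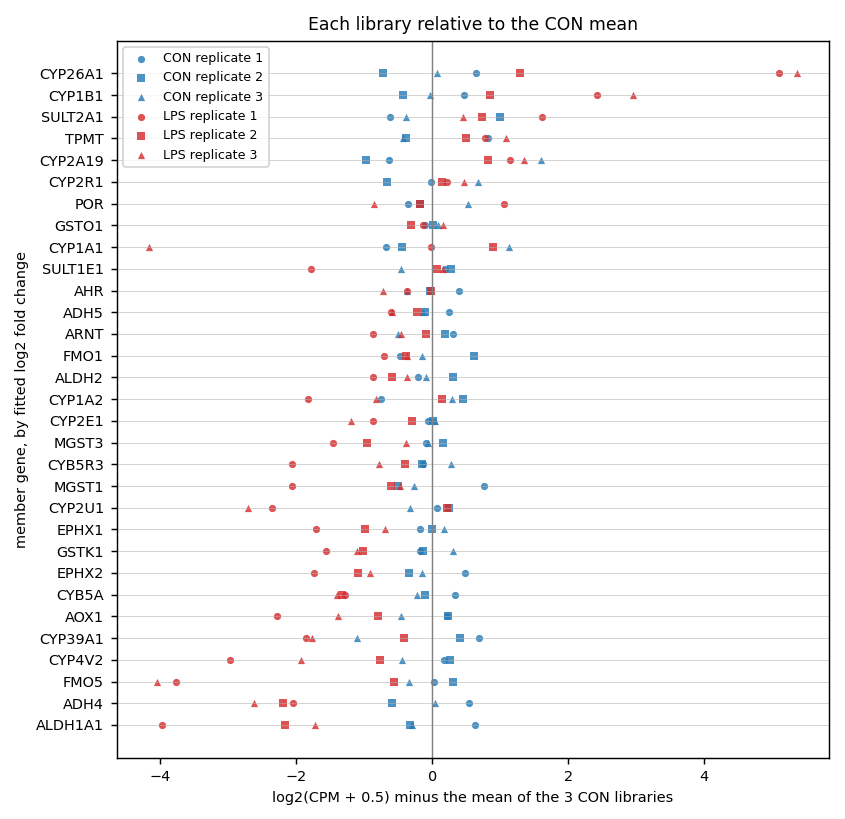
Each tested member (y axis, ordered by fitted log2 fold change) with 1 point per library, as log2(CPM + 0.5) minus the mean of the 3 CON libraries (x axis). Blue points are CON and red points LPS. For FMO5, CYP2U1 and CYP26A1, LPS replicate 2 (red squares) lies nearer to the CON points than LPS replicates 1 and 3 do, and for CYB5A the 3 LPS points nearly coincide.

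The electron donors of the P450s were unequal. CYB5A (ENSSSCG00000004875, chromosome 1 from 149737571 to 149783623), cytochrome b5, stood at 476, 349 and 321 CPM in CON and at 155, 150.3 and 143 CPM in LPS. The LPS libraries, LPS replicate 2 included, were close to each other and far below the CON group. The log2 fold change was -1.35 (SE 0.31, adjusted p = 0.147 by edgeR), and DESeq2 gave an adjusted p of 0.0056. Leaving out LPS replicate 2 gave CYB5A -1.36 (edgeR adjusted p = 0.0474). CYB5R3, the reductase of cytochrome b5, had 90.3, 89.5 and 119.7 CPM against 23.3, 75.1 and 57.1 CPM, without overlap (log2 fold change -0.94, edgeR adjusted p = 0.396). POR, the main P450 reductase, stood at 129, 147 and 239.8 CPM in CON and at 346, 147 and 91.1 CPM in LPS. LPS replicate 1 was the highest and LPS replicate 3 the lowest of all libraries, and the log2 fold change of 0.18 (95% interval -0.92 to 1.27) became -0.52 without LPS replicate 1 and 0.34 without LPS replicate 2.

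AHR, the ligand-activated receptor that induces the CYP1 family, and its partner ARNT had groups that overlapped. AHR stood at 27.1, 19.997 and 15.7 CPM in CON and at 15.7, 20.1 and 12.2 CPM in LPS, with overlap. ARNT had 34.1, 31.6 and 19.3 CPM against 14.8, 25.8 and 19.9 CPM, also with overlap. The 95% intervals of the log2 fold changes ran from -1.17 to 0.38 for AHR and from -1.27 to 0.30 for ARNT. The log2 fold change of AHR was -0.39 with all libraries and -0.59 without LPS replicate 2. The row whose exons overlap those of ARNT is CTSS, a lysosomal protease.

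All 7 members among the other enzymes of the first phase had log2 fold changes below 0, with a median of -1.40, and in 6 of them no LPS value reached the CON range, as in 9.8% of all tested genes. ADH4 (ENSSSCG00000009184, chromosome 8 from 121225656 to 121261747), an alcohol dehydrogenase that also acts on retinol, stood at 100.8, 45.6 and 71.2 CPM in CON and at 16.4, 14.7 and 10.9 CPM in LPS. The LPS libraries spread over a narrower range than the CON libraries, and the groups did not overlap. The log2 fold change was -2.38 (SE 0.38, adjusted p = 0.0661 by edgeR), the smallest adjusted p of the members. It lay between -2.63 and -2.07 over all alternatives, of which 5 called the gene, and was -2.43 without LPS replicate 2 (edgeR adjusted p = 0.00981).

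ALDH1A1 (ENSSSCG00000028996, chromosome 1 from 226161296 to 226217312), a cytosolic aldehyde dehydrogenase that makes retinoic acid from retinal, had 900.1, 466 and 474 CPM in the CON replicates. In LPS replicates 1, 2 and 3 it had 36.6, 130.4 and 177 CPM, so the highest LPS value was well below the lowest CON value. Its log2 fold change of -2.42 (SE 0.56, adjusted p = 0.156 by edgeR) was the lowest of all members, and became -2.51 without LPS replicate 2 (edgeR adjusted p = 0.0468). ALDH2, the mitochondrial enzyme that removes acetaldehyde, had 615 to 878 CPM in the CON group and 390.1 to 549 in the LPS group, without overlap (log2 fold change -0.61, edgeR adjusted p = 0.467).

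AOX1, aldehyde oxidase, stood at 515, 523 and 324 CPM in CON and at 90.5, 255 and 169.5 CPM in LPS (log2 fold change -1.40, SE 0.42, adjusted p = 0.235 by edgeR). With LPS replicate 2 left out, AOX1 had a log2 fold change of -1.80 (edgeR adjusted p = 0.029). FMO5, a flavin monooxygenase, stood at 199.6, 241 and 154 CPM in CON and at 14.0, 133 and 11.4 CPM in LPS. The difference in FMO5 was thus large in 2 LPS libraries and small in LPS replicate 2. Its log2 fold change was -1.91 with all libraries (edgeR adjusted p = 0.397) and reached -3.97 once LPS replicate 2 was left out (adjusted p = 0.000831). FMO1, the most abundant member of this group per length, had 200.5, 425 and 250.4 CPM against 170.1, 213 and 215 CPM, with overlap, and a log2 fold change of -0.55 (95% interval -1.35 to 0.25). ADH5, the glutathione-dependent formaldehyde dehydrogenase, had 62.6 to 81.1 CPM in the CON group and 44.7 to 58.7 in the LPS group, a smaller difference than that of its neighbour ADH4 on chromosome 8 (log2 fold change -0.48, edgeR adjusted p = 0.535). The difference between these 2 genes was not tested.

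Both epoxide hydrolases were lower in every LPS library than in every CON library. EPHX1 (ENSSSCG00000010853, chromosome 10 from 13735170 to 13773071) stood at 907, 1020.3 and 1152 CPM in CON and at 314, 517 and 630.4 CPM in LPS. The fitted log2 fold change was -1.07 (SE 0.35, adjusted p = 0.266 by edgeR), a fitted CON level 2.11 times that of the LPS group. EPHX2, the soluble enzyme that opens fatty acid epoxides, had 231, 131 and 149.7 CPM against 49.5, 77.9 and 88.1 CPM (log2 fold change -1.25, SE 0.36, adjusted p = 0.221 by edgeR). Neither rested on LPS replicate 2, since the values without it were -1.11 and -1.30.

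**Figure D4:**
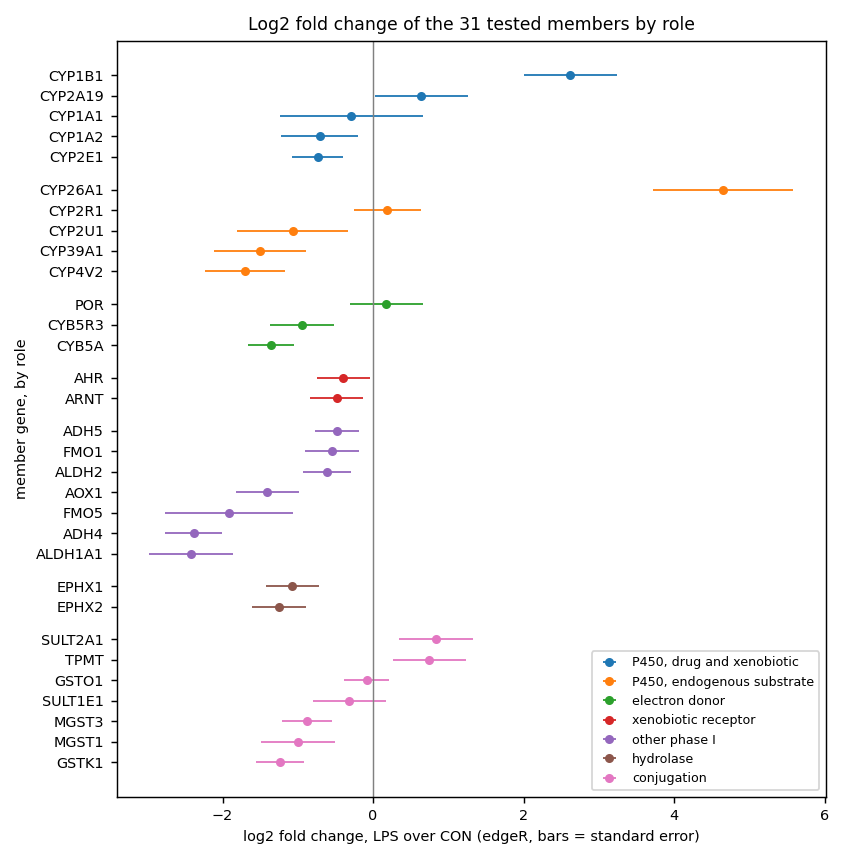
Fitted log2 fold change, LPS over CON, of the 31 tested members, grouped and coloured by role, with bars for the standard error from edgeR with all 6 libraries. All 7 other enzymes of the first phase and both hydrolases lie left of 0, while CYP26A1 at 4.65 and CYP1B1 at 2.62 stand far to the right.

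The conjugating enzymes divided. GSTK1, the kappa-class glutathione transferase of mitochondria and peroxisomes, stood at 200.4, 207 and 279.9 CPM in CON and at 76.3, 112 and 104.7 CPM in LPS. No LPS value reached the CON range, and the log2 fold change was -1.23 (SE 0.32, adjusted p = 0.2002 by edgeR). MGST3, a microsomal glutathione transferase, had 61.8, 73.1 and 62.7 CPM against 23.5, 33.5 and 49.98 CPM (log2 fold change -0.88, edgeR adjusted p = 0.341). MGST1, its relative, had 272, 114 and 133 CPM against 38.2, 105 and 116 CPM, with overlap in LPS replicate 3 (log2 fold change -0.998, edgeR adjusted p = 0.443).

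GSTO1, the most abundant of them per length, had overlapping groups. It stood at 192, 207 and 219 CPM in CON and at 188, 165 and 229 CPM in LPS, a log2 fold change of -0.09 with a 95% interval from -0.74 to 0.57, which became 0.02 without LPS replicate 2. SULT2A1 had 118, 365 and 139.9 CPM against 559, 304 and 249 CPM, with overlap and a log2 fold change of 0.84 (95% interval -0.27 to 1.94), which ran from 0.42 without LPS replicate 1 to 1.52 without CON replicate 2. SULT1E1, the estrogen sulfotransferase, was low in LPS replicate 1 only, with 7.20 CPM there against 27.2 and 28.9 in LPS replicates 2 and 3 and 18.7 to 31.4 in the CON group. Its log2 fold change of -0.32 became 0.09 without LPS replicate 1 and -0.51 without LPS replicate 2. TPMT, thiopurine methyltransferase, had 2.27 to 6.08 CPM in the CON group and 4.74 to 7.44 in the LPS group (log2 fold change 0.75, edgeR adjusted p = 0.560), and its log2 fold change was 1.38 without CON replicate 1. GSTM3, a mu-class glutathione transferase, had 10, 2 and 3 counts in the CON libraries and 4, 5 and 19 in the LPS libraries, and did not pass the filter on low counts.

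The LPS libraries differed in how far they lay from the CON group. The tested members had a median log2 level relative to the CON mean of -1.28, -0.32 and -0.73 in the LPS libraries. The CON libraries ranged from -0.13 to 0.08 by the same measure. Over all tested genes the same medians were -0.05, -0.01 and -0.03 in the LPS libraries. Of the 24 members with a log2 fold change below 0, the lowest LPS value was that of replicate 1 in 16, of replicate 3 in 7 and of replicate 2 in 1. LPS replicate 2 lay within the CON range in 13 of the 31 members, below it in 16 and above it in 2. For LPS replicate 1 these counts were 4, 23 and 4, and for LPS replicate 3 they were 7, 20 and 4.

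Other genes of drug metabolism were read from the same fit, using lists of related P450s, enzymes, regulators and transporters. Of 190 genes listed, 135 had a row and 108 were tested, with 36 higher and 72 lower and a median log2 fold change of -0.44. edgeR called 0 higher and 0 lower, against 0.0548% and 0% of all tested genes. At an unadjusted p below 0.05, 11 were higher and 31 lower, against 6.18% and 6.33% of all tested genes. DESeq2 called 5 and 11, against 1.96% and 1.02%, and limma-voom 0 and 0, against 0.0157% and 0%. With LPS replicate 2 left out, 6 of these genes were called higher and 27 lower by edgeR, against 3.76% and 3.45%.

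Of the 10 other P450s tested, 2 were higher and 8 lower (median log2 fold change -0.61). CYP7A1, the rate-limiting enzyme of bile acid synthesis, stood at 16.4, 21.2 and 16.02 CPM in CON and at 0.436, 2.29 and 0.273 CPM in LPS (log2 fold change -4.25, SE 0.68, adjusted p = 0.0668 by edgeR). CYP51A1, of cholesterol synthesis, and CYP2S1 had log2 fold changes of -1.11 and -1.15 (edgeR adjusted p = 0.263 and 0.367). The 2 higher genes were CYP26B1, a second retinoic acid hydroxylase, with 0.715 to 1.09 CPM in the CON group and 3.21 to 8.50 in the LPS group, and PTGIS, prostacyclin synthase (log2 fold changes 2.56 and 1.29, edgeR adjusted p = 0.111 and 0.263). CYP26B1 passed the filter on low counts only through the LPS libraries, the group where it was higher.

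The lists of transferases and transporters had the lowest medians of these lists. Of the 18 other conjugation genes tested, 15 were lower and 3 higher (median log2 fold change -1.14). UGDH, which makes the UDP-glucuronic acid used in glucuronidation, had 75.8, 52.0 and 48.2 CPM against 16.6, 19.3 and 23.0 CPM (log2 fold change -1.57, edgeR adjusted p = 0.104), and INMT, a methyltransferase, had a log2 fold change of -1.56 (edgeR adjusted p = 0.220). NNMT, nicotinamide N-methyltransferase, went the other way, standing at 128, 159 and 383 CPM in CON and at 1671, 529 and 1731 CPM in LPS (log2 fold change 2.55, edgeR adjusted p = 0.142). UGP2, which makes UDP-glucose, had a log2 fold change of 1.41, and GSS, glutathione synthetase, 0.40 (edgeR adjusted p = 0.224 and 0.669).

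Of the 11 drug transporters tested, 9 were lower and 2 higher (median log2 fold change -1.36). ABCC3, an export pump, and SLC10A1, which takes up bile acids, had log2 fold changes of -1.36 and -1.78, both without overlap (edgeR adjusted p = 0.133 and 0.172). The 2 with higher values, ABCC1 and SLC22A3, had 0.31 and 0.21 (edgeR adjusted p = 0.789 and 0.908).

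Of the 32 further first-phase enzymes tested, 25 were lower and 7 higher (median log2 fold change -0.63). DPYS, which breaks down pyrimidines, had 219.5, 214 and 188 CPM against 22.0, 85.2 and 25.9 CPM (log2 fold change -2.22), XDH, xanthine dehydrogenase, -1.78 and MAOB, a monoamine oxidase, -1.40 (edgeR adjusted p = 0.156, 0.160 and 0.253). The 3 higher genes with the smallest p were CDA at 3.31, ALDH1A2 at 1.30 and ALDH1A3 at 0.57 (edgeR adjusted p = 0.230, 0.370 and 0.646). CDA was near the floor, with 0, 0 and 0.890 CPM in CON and 2.40, 3.60 and 3.69 CPM in LPS. It passed the filter on low counts only through the LPS libraries.

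The regulators did not lie lower as a list. Of 37 tested, 22 were higher and 15 lower (median log2 fold change 0.13). NR1I2, the pregnane X receptor that drives CYP3A and CYP2B genes, stood at 67.7, 54.7 and 79.7 CPM in CON and at 14.8, 52.7 and 12.8 CPM in LPS (log2 fold change -1.33, edgeR adjusted p = 0.347). The bile acid receptor NR1H4 and the fatty acid receptor PPARA had log2 fold changes of -1.16 and -0.92, also without overlap (edgeR adjusted p = 0.256 and 0.329). Higher values were found for VDR at 1.99, CEBPB at 1.20 and ESRRA at 1.12 (edgeR adjusted p = 0.253, 0.353 and 0.368). VDR was near the floor, with 0.268 to 1.09 CPM in the CON group and 1.96 to 3.004 in the LPS group. It passed the filter on low counts only through the LPS libraries, so its higher values there were a condition of being tested. HNF4A, a hepatocyte factor that is also in the list of hepatocyte markers, had 206 to 559 CPM in the CON group and 277 to 729.6 in the LPS group.

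Summed levels of markers of other cell types are given beside these results. Of 7 tested neutrophil markers 6 were higher in the LPS group, with summed levels of 23.3 to 34.8 CPM in the CON libraries and 89.2 to 328 in the LPS libraries, and MMP8 had no counts in the CON libraries. All 6 cholangiocyte markers tested were higher (25.4 to 33.9 against 42.4 to 139 CPM), as were both tested markers of red blood cells or platelets (70.9 to 97.0 against 88.3 to 321 CPM). Of 12 Kupffer cell markers 11 were lower, with summed levels of 2529 to 4082 CPM in the CON group and 2730.5 to 4216 in the LPS group. These sums include CD14, the 1 higher marker, with 518, 818 and 821 CPM in CON and 1354, 805 and 2328 CPM in LPS. The endothelial list had 6 of 7 lower (249.8 to 568 against 208 to 358 CPM), the T or NK cell list 7 of 9 (153 to 205 against 93.3 to 184 CPM), the B or plasma cell list 6 of 7 (26.8 to 116 against 20.5 to 47.4 CPM) and the stellate cell list 5 of 9 (960.3 to 1367 against 713 to 1502 CPM). The hepatocyte list summed to 78329 to 93441 CPM in the CON group and 64853 to 132250 in the LPS group. FGB made up 8098 to 12715 CPM of this in the CON group and 14561 to 44960 in the LPS group. ALB made up 20307 to 38011 and 12381 to 19676 CPM. The part of cell composition in the members' differences was not tested.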

How the data were processed

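For 6 input libraries the authors deposited a table of unnormalized read counts over 31908 Ensembl pig genes, with gene positions and exon lengths. The submitters' processing notes name cutadapt 1.9.3 and HISAT2 and the builds galGal6 and hg38, neither of which is a pig build, with no counting program stated. Of 13688 genes with the same symbol and chromosome in RefSeq Sscrofa11.1, 99.95% overlapped in position, so positions are given as Sscrofa11.1. CON replicates 1 and 2 have 2 entries each in the labels and 1 column each in the table, and 0 sample columns were left unmapped. Symbols came from a table of gene names that paired 15029 of the rows.

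The main analysis used edgeR 4.0.16 under R 4.3.3 (filterByExpr with a minimum count of 10, TMM, robust dispersions, glmQLFit and glmQLFTest, 12774 genes tested). A gene was called at an adjusted p below 0.05 together with a fold change over 1.5. Standard errors were the size of the log2 fold change over the root of edgeR's F statistic, and 95% intervals use the test's degrees of freedom. p-values were adjusted over all tested genes. The alternatives were DESeq2 1.42.0 and limma-voom (limma 3.58.1), RLE or total-count scaling, no filter or a filter of 10 counts per library, a replicate block, each library left out, and a fold threshold of 2 or none. The fitting code was tested on simulated data.

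The members and lists were chosen with earlier results of these data known. Library values are given for members at an unadjusted p below 0.05, for members without overlap and a log2 fold change beyond 1 in size, and for the member with the highest CON level per length in each role. Library values of further members are given by choice after their values were seen. From the other lists, up to 3 genes per direction with the smallest p are named except that some are not reported here, and HNF4A, MMP8 and ALB were added by choice. No gene sequences were used here.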

Additional observations from a re-analysis of the deposited data

How the results depend on the processing

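The member median log2 fold change of -0.71 lay between -1.02 (without LPS replicate 2) and -0.52 (without LPS replicate 1) under every alternative run, and the number of members lower stayed between 23 and 25. Scaling to total counts moved the median of all genes from 0.01 to -0.12 and that of the members to -0.78. Counts of calls depended on the setting, and the cause was not tested. For members (0 higher and 0 lower) they were 2 and 8 without a filter, 2 and 4 with DESeq2 and 1 and 1 with the replicate block, and 0 to 2 higher and 0 to 8 lower when a library was left out. For the other drug-metabolism genes (0 and 0) they were 7 and 20, 5 and 11, and 1 and 1 in the same settings, and 0 to 6 and 0 to 27. For all genes (7 and 0) they were 536 and 349, 276 and 144, and 42 and 9, and 0 to 512 and 0 to 470. RLE factors called 8 and 1, scaling to total counts 11 and 1, limma-voom 2 and 0, and at least 10 counts in every library 0 and 0 (629 and 647 at an unadjusted p below 0.05).

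The highest counts with a library left out were those without LPS replicate 2. Without LPS replicate 3, ADH4 was the 1 member called (adjusted p = 0.0378), and without LPS replicate 1 or any CON replicate no member was called by edgeR, with 7 to 9 members lower and 2 or 3 higher at an unadjusted p below 0.05 (444 to 615 lower and 422 to 675 higher of the 12487 to 13638 genes tested). With a library left out, log2 fold changes turned direction for CYP1A1 (0.53 without CON replicate 3, 0.28 without LPS replicate 3, range -1.20 to 0.53), CYP2R1 (-0.0914 without CON replicate 2, range to 0.674), POR (-0.52 without LPS replicate 1, range to 0.53), SULT1E1 (0.094 without LPS replicate 1, range from -0.597) and GSTO1 (0.01997 without LPS replicate 2, range from -0.207). The labels do not say whether replicate numbers pair the libraries. Deviations of same-numbered libraries correlated at -0.26, 0.22 and 0.03, and those of differently numbered libraries at -0.26 to 0.23. With 3 libraries per group and the same range in both, this check cannot decide on pairing. The edgeR fit with the replicate block called CYP26A1 and ADH4 (adjusted p = 0.0323 and 0.0334). The planned sums over CYP3A and CYP2C genes were not run, since none of these members could be matched to a row. Depth limits low members, such as CYP1B1 and GSTM3.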

Other observations

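Genes of retinoid metabolism were set side by side after their values were seen. Of the enzymes that form retinoic acid, ALDH1A1 had a log2 fold change of -2.42 and ADH4, which acts on retinol, -2.38, while ALDH1A3 had 0.57 and ALDH1A2 1.30, with 2.68 to 9.69 CPM in the CON group and 8.998 to 25.3 in the LPS group. Of the enzymes that clear it, CYP26A1 had 4.65 and CYP26B1 2.56, both without overlap between the groups. CYP26B1 was at a low level, with 0.715 to 1.09 CPM in the CON group and 3.21 to 8.50 in the LPS group. It passed the filter on low counts only through the LPS libraries, so its higher values there were a condition of being tested. DHRS3, a retinal reductase, had 0.26. The retinoic acid receptors RARA and RARB had 0.67 and 1.41, and RARB reached 39.1 CPM in LPS replicate 3 against 4.09 to 7.60 in the other libraries. The edgeR adjusted p of these 9 genes, with the filter on low counts, all 6 libraries and no replicate block, ranged from 0.0661 to 0.775. Further retinoid genes of the lists had no higher values of that kind. The retinoid X receptors RXRA and RXRB had -0.11 and 0.06 (edgeR adjusted p = 0.942 and 0.960). DHRS4 had -0.73 and LRAT, from the stellate cell list, -0.11 (edgeR adjusted p = 0.668 and 0.811).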
